A study of Daphnia magna with 144 samples.

Results

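The 121 probes described here were bright in *Daphnia magna* under every one of 36 chemical exposures, and their mean signal under each exposure stayed within 1 log2 unit, a 2-fold range. They were chosen from 14338 probes on 1-colour arrays read with a single dye. The signal of a spot was taken as log2 of the foreground minus background intensity plus 50, averaged over the spots of a probe and quantile normalised, which gives all arrays the same distribution of values. A probe was a member if the mean of its 36 chemical means was at least 11 and if the span, the highest minus the lowest chemical mean, was under 1. The rule would have kept at most 150 probes, and 121 qualified. Of all probes, 1380 had a mean of at least 11, so the other 1259 had a wider span. The means of these other bright probes had a median of 12.09, against 12.75 in the members, so brightness was not matched. Brightness and small span among the chemicals were therefore what selected the members, and values of both are given only as a description.

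*Daphnia magna* is a freshwater water flea that is widely used in toxicity testing. Cultures came from a commercial supplier, and no strain or clone is used as a group. Per the labels, each sample was a pool of 20 animals of 14 days, exposed for 24 h in 1 L of COMBO medium, a defined freshwater medium, to 1/10 of the LC50 of a chemical. The LC50 is the concentration that kills 1 animal out of 2 on average. Each chemical had 4 samples, 1 array each, and a named vehicle control.

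The Media control served 13 chemicals. These were 20 hydroxyecdysone at 1.37 mg/L, Acrylonitrile at 1.27 mg/L, Arsenic at 0.54 mg/L, Cadmium at 0.018 mg/L, Chromium at 0.054 mg/L, Copper at 0.00615 mg/L, MTBE at 145 mg/L, Manganese at 2.8 mg/L, Nickel at 0.69 mg/L, Phenol at 0.79 mg/L, Selenium at 1.33 mg/L, Silver at 4.3e-05 mg/L and Zinc at 1.77 mg/L. The Ethanol control served 15 chemicals. These were 2-chloro vinyl ether at 17.3 mg/L, Beta-benzene hexachloride at 146 mg/L, Beta-estradiol at 1 mg/L, Bifenthrin at 0.0001 mg/L, Bis2-ethylhexyl phthalate at 0.039 mg/L, Chloroform at 7.47 mg/L, Dichlorobenzene at 1.51 mg/L, Lamda Cyhalothrin at 0.0006 mg/L, Methoxychlor at 0.0944 mg/L, Nonylphenol at 0.0071 mg/L, PonasteroneA at 0.813 uM, Pyripoxyfen at 0.3 nM, Toluene at 3.58 mg/L, Toxaphene at 0.172 mg/L and Trichloroethylene at 2.49 mg/L. The Methanol control served Aroclor at 0.166 mg/L, Chlorpyrifos at 0.00129 mg/L and Methylfarnesoate, whose label gives 20 with a unit that is not clear. The Acetone control served Atrazine at 2.07 mg/L, Diazinon at 0.0003 mg/L and Parathion at 0.00226 mg/L. The DMSO control served Permethrin at 0.00041 mg/L and Phenanthrene at 0.366 mg/L. Whole animals were used, so fewer cells of a type and less RNA per cell cannot be told apart.

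The chemicals act on animals in very different ways. Organophosphates such as Chlorpyrifos, Diazinon and Parathion inhibit acetylcholinesterase, pyrethroids such as Permethrin and Bifenthrin hold nerve sodium channels open, and 20 hydroxyecdysone is the arthropod moulting hormone. Genes whose RNA changes little over such unlike exposures are of use as reference genes, to which other measurements are scaled. A bright, flat array signal alone does not identify such a gene, since a spot at the scanner's upper limit is flat whatever its RNA does. The tables used here do not pair the probes with genes, so the members are named by probe.

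All 121 members were above background on every array, with the cut 3 SD over the mean of the array's 77 negative control spots. The same held for 6672 of all 14338 probes. The limits on brightness and span all but required it of the members. The median foreground of an array ran from 66 to 116 intensity units over a median background of 35 to 41. Of the 10 spike-in probes named E1A_r60, 7 were above background on all 92 arrays of solvent chemicals and on at most 16 of the 52 arrays of Media chemicals. For E1A_r60_1, the signal above background ran from 1.70 to 20.65 intensity units on the 52 arrays of Media chemicals, with a median of 6.20. On the 92 arrays of the other vehicles it ran from 50544 to 65490, with a median of 64201. Media and solvent chemicals thus differed in their spike-in, and the vehicle and this difference cannot be told apart in any comparison between them. Neither slide nor scan date is given, so chemical and array batch cannot be told apart either.

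The mean log2 intensity of the members ran from 11.001 to 15.98, with a median of 12.75. Their spans ran from 0.16 to 1.00, with a median of 0.85. Most lay close to the limit, as 85 members had a span of 0.75 or more and 50 had one of 0.9 or more, while 8 were under 0.5. At the span limit, DM03824 lay just inside at 0.9986 and DM01220 just outside at 1.0001. At the brightness limit, DM09367 lay just inside with a mean of 11.001, and DM02224 was left out with a mean of 10.94 and a span of 0.85.

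The share of probes that qualified was nearly level with brightness and then jumped. Of 1323 probes with a mean from 11 to 15, 89 qualified, or 6.73%. Of 57 probes with a mean of at least 15, 32 qualified, or 56.1%. No spot of any array exceeded 65535 intensity units, the scanner's limit, and 24 of these 32 reached it on at least 1 array. No member with a mean under 15 did. Among all probes, 8 were saturated on more than 72 arrays, and 7 of the 8 were members. The 24 saturated members had a median span of 0.69, and the other 97 had spans from 0.51 to 1.00 with a median of 0.90.

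The 6 members of smallest span were all saturated on many arrays. DM07707 had a mean of 15.98 and a span of 0.16 and was saturated on 130 of the arrays (4 for each of 36 chemicals). DM08143 had a span of 0.23 with 141 arrays saturated, and DM01597 a span of 0.24 with 118. For these 3 probes the true signal was out of the scanner's reach on most arrays. DM14576 followed with a span of 0.26 and 77 saturated arrays, DM01759 with 0.31 and 86, and DM04121 with 0.47 and 45. The first 4 were also the members of highest mean.

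In the first 3 the span was not a difference in measured signal. DM07707 was lowest in Phenol, at 15.99, 15.63, 15.998 and 15.755 on the 4 arrays (mean 15.84 ± 0.18 SD), and all 4 spots were saturated. It was highest in Methoxychlor, at 16 on each of 4 arrays, again all saturated. DM08143 was lowest in Phenol (15.77 ± 0.05) and DM01597 too (15.76 ± 0.17), each with 4 of 4 arrays saturated. A saturated spot gives a bound and no level, so the order of these chemicals is not an order of RNA. DM01759 differed in kind, since it was below the limit on all 4 Lamda Cyhalothrin arrays (15.68 ± 0.03) and saturated on 3 of 4 Permethrin arrays (15.99 ± 0.01). DM04121 was likewise unsaturated in Diazinon (15.52 ± 0.11) and saturated on 4 of 4 arrays in MTBE (15.99 ± 0.01).

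The members of smallest span that were saturated on no array are DM03927, DM07106, DM06558 and DM01772, singled out after their values were seen. DM03927 had a mean of 11.90 and a span of 0.51. It was lowest in Cadmium, at 11.61, 11.84, 11.65 and 11.52, and highest in Arsenic, at 12.23, 12.10, 12.07 and 12.27. The arrays of these 2 chemicals did not overlap, which choosing the lowest and the highest of 36 chemicals favours. By vehicle, its chemical means had a median of 11.92 in Media, 11.88 in Ethanol, 11.92 in Methanol, 11.87 in Acetone and 11.91 in DMSO.

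DM07106 had a mean of 11.31 and a span of 0.54. It was lowest in Lamda Cyhalothrin, at 11.10, 11.01, 11.07 and 11.02, and highest in Selenium, at 11.54, 11.59, 11.60 and 11.64. Its median over the Media chemicals was 11.51, against 11.18 over the Ethanol chemicals. DM06558 had a mean of 14.96 and a span of 0.60, from Silver (14.67 ± 0.12) to Parathion (15.27 ± 0.09). Its Media chemicals were on the low side, with a median of 14.80 against 15.08 in Ethanol. DM01772 had a mean of 15.11 and a span of 0.62, from Diazinon (14.76 ± 0.09) to 20 hydroxyecdysone (15.38 ± 0.04). Before normalisation its background-subtracted intensity ran from 19337 to 54040 over the arrays, short of the scanner limit.

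A narrow span did not mean that the chemicals gave the same level. The SD among the 36 chemical means exceeded the pooled SD among replicate arrays in 117 of 121 members, with a median ratio of 1.83 and a range from 0.65 to 3.003. That is 96.7% of the members, against 99.4% of the 1259 other bright probes and 80.0% of all probes. The median ratio was 2.62 for the other bright probes and 2.01 for all probes. The span was over 4 times the replicate SD in 116 members, a count not made for other probes. These ratios use the values of the selection and carry no test. The replicate SD itself had a median of 0.11 in the members, 0.17 in the other bright probes and 0.11 over all probes. DM08143 (0.04) and DM07707 (0.06), both mostly saturated, had the smallest replicate SD.

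DM05374 (0.26) and DM07827 (0.22) had the largest replicate SD, and both had their largest SD in Arsenic. In Arsenic, DM05374 lay at 14.75, 12.76, 13.09 and 14.67 on the 4 arrays. DM07827 lay at 12.44, 11.25, 11.10 and 12.53 on the same arrays, and DM04406 at 11.25, 10.44, 10.37 and 11.24. Replicates 1 and 4 were the high pair and replicates 2 and 3 the low pair in all 3 probes. DM07689 repeated the pairs, at 15.53, 14.81, 14.76 and 15.51. DM10468 did not, since it lay at 15.13, 15.12, 13.74 and 15.24, with replicate 3 alone low. Over all 121 members, 77, 50, 49 and 79 lay above their Arsenic mean on replicates 1 to 4. In Manganese the counts were 94, 31, 27 and 91, though arrays of different chemicals share only a replicate number. Arsenic and Silver had the most members with a replicate SD over 0.3, with 18 and 17 of 121. The median replicate SD of the members was highest in Arsenic (0.145) and lowest in Bis2-ethylhexyl phthalate (0.0371). Among the other bright probes it was 0.224 in Arsenic and 0.203 in Silver, so a wide spread there was not particular to the members. Arsenic was the lowest chemical for DM07827, DM07689 and DM04406, so their spans rested on 4 arrays that disagreed with each other.

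The extremes of the members were spread unevenly over the chemicals. Permethrin, a pyrethroid, was the highest chemical for 14 members and the lowest for 11. Nickel was highest for 13, Trichloroethylene and Silver for 10 each. Diazinon was lowest for 14 and Methoxychlor, an organochlorine insecticide, for 9. Aroclor and Bis2-ethylhexyl phthalate were neither the highest nor the lowest for any member. These counts use the values of the selection and include saturated members, for which the order of chemicals is not an order of RNA. Counts for other probes were not made, so the unevenness may not be particular to the members.

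The members moved together to a small degree. In Trichloroethylene, 104 of 121 members lay above their own mean, with a median shift of 0.17 log2 units. In Diazinon the median shift was -0.18 and 31 members lay above their mean. With arrays centred on the median instead, the shift was 0.26 in Trichloroethylene and 0.05 in Diazinon, so the sign turned in Diazinon. It turned in Chloroform too, from 0.11 to -0.19, and in 20 hydroxyecdysone, from 0.08 to -0.15. The median correlation between 2 members over the 36 chemical means was 0.13 for 7260 pairs, and 66.1% of the pairs were above 0. Among the other bright probes the median was 0.0068. Pairs above 0.5 made up 10.9% in the members and 7.84% in the other bright probes. Saturated members are included in these values. Pairs share arrays, and quantile normalisation ties probes of like brightness, so these are descriptions. The first principal component held 25.01% of the variance of the members and the second 11.9%. Atrazine (0.31) and Diazinon (0.30) lay at one end of the first component and Selenium (-0.27), Copper (-0.26) and Trichloroethylene (-0.25) at the other.

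How narrow a member looked depended on the scaling. With each array centred on its median in place of quantile normalisation, 42 probes met the rule and 37 of them were among the 121. Of the 37, 20 were saturated on some array and 17 were not. The median span of the 121 members was then 1.204, with a range from 0.48 to 1.88, and that of DM03927 was 1.23. The common shift of the members on this scale ran from -0.40 in Beta-estradiol to 0.49 in Nickel.

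The members were chosen to be flat after quantile normalisation, so their common shift on the median-centred scale largely restates how far the bright end of an array lies above its median. It is set here beside another bright feature as a description only. Over the 36 chemicals, the shift had Pearson's r = 0.820 and Spearman's rho = 0.815 with the mean log2 intensity of the bright-corner spots, control features of the array design. Both measures come from the same arrays. Within the 15 Ethanol chemicals r was 0.920, and within the 13 Media chemicals it was 0.587, or 0.214 without the 2 chemicals farthest from the median of the spots. The other vehicles held too few chemicals for a value.

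The rule looked only at the chemicals among themselves, so the level of the members in the vehicle controls was left free. It can be read from the deposited log2 ratios, each of which sets an array against the control of its vehicle. A limma model with a mean for each of the 36 chemicals tested the mean ratio of each vehicle's chemicals against 0, with Benjamini-Hochberg adjustment over all 13481 probes in the value table. Calls were made below an adjusted p of 0.05. The control arrays add no spread to this test, and chemicals of a vehicle share one control, so the p-values are too small. The chemical side of each ratio was held narrow by the selection, while the control side was not.

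Nearly all members were called against the Media control, as were most of all probes. Of 121, 72 were called higher, or 59.5%, against 44.5% of all probes, and 45 lower, or 37.2%, against 46.7%. Together 117 were called, or 96.7%, against 91.2% of all probes. The sizes were small, which the limit on the span favours. Their median was 0.22 log2 units for the members, 0.52 for the other bright probes and 0.50 for all probes. A single member changed by 1 or more, against 21.2% of all probes. In an alternative fit of limma on the 36 chemical means, the spread is that between chemicals of a vehicle. There, 83 of 121 members were called, a smaller share than the 73.3% of all probes.

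That member was DM07443, which rose by 1.01 ± 0.02 (SE, adjusted p = 7.9e-71). Its ratio ran from 0.69 in Nickel to 1.40 in Manganese over the 13 Media chemicals, with a median of 1.05. All 13 were above 0, which the shared control and the limit on the span favour. DM07689 was called higher too, with ratios from 0.35 in Arsenic to 1.42 in Copper. It was saturated on at least 1 array in 11 of the 13 Media chemicals, and on 4 of 4 arrays in 20 hydroxyecdysone, Copper and Phenol, so its ratios are not exact sizes and no fold is given. DM06731 fell by 0.71 on the log2 scale (SE 0.01, adjusted p = 4.9e-82) and DM12446 by 0.66 (SE 0.02, adjusted p = 1.4e-61), both below 0 in 13 of 13 chemicals. The ratio of DM06731 ran from -1.07 in 20 hydroxyecdysone to -0.22 in Arsenic. That of DM12446 ran from -1.07 in Phenol to -0.40 in Nickel.

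Against the Ethanol control, 93 members were called, or 76.9%, against 84.2% of all probes. They were 49 higher (40.7% of all probes) and 44 lower (43.4%), with a median size of 0.090 against 0.25 over all probes. On chemical means, 46 members were called, a smaller share than the 47.9% of all probes. DM09353 rose by 0.40 ± 0.02 (SE, adjusted p = 1.1e-47) and was above 0 in 15 of 15 chemicals, from 0.08 in Toluene to 0.84 in Toxaphene. DM10731 rose by 0.38 ± 0.02 (SE, adjusted p = 1.7e-32), above 0 in 13 of 15. The largest falls were those of DM01958, by 0.33 on the log2 scale (SE 0.02, adjusted p = 5.1e-35), below 0 in 14 of 15, and DM01587, by 0.29 (SE 0.01, adjusted p = 5e-41), below 0 in 13 of 15.

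Against the Methanol control, 69 members were called, or 57%, against 53.8% of all probes. Most were lower, with 54 lower (29.3% of all probes) and 15 higher (24.5%), and the median size was 0.086 against 0.18 over all probes. On chemical means limma ended every one of these calls, with 0 members called, 5 at an unadjusted p under 0.05, and 1.62% of all probes called. The p-values that follow use the spread between arrays. DM01800 rose by 0.25 ± 0.03 (SE, adjusted p = 9.8e-14) with ratios of 0.23 in Aroclor, 0.19 in Chlorpyrifos and 0.34 in Methylfarnesoate. DM04406 rose by 0.25 ± 0.05 (SE, adjusted p = 8.3e-07). DM02472 fell by 0.49 on the log2 scale (SE 0.03, adjusted p = 1.3e-28), furthest in Chlorpyrifos at -0.70, and DM12446 by 0.29 (SE 0.04, adjusted p = 1.4e-10).

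Acetone and DMSO gave the widest member ratios after Media, from 3 and 2 chemicals. Against the Acetone control, 92 members were called, or 76%, against 73.2% of all probes. They were 39 higher (35.3% of all probes) and 53 lower (37.9%). On chemical means, 26 members were called, a slightly smaller share than the 23% of all probes. DM06740 rose by 0.80 ± 0.03 (SE, adjusted p = 3.7e-47), with 0.71 in Diazinon as its lowest and 0.96 in Atrazine as its highest ratio. DM05374 rose by 0.76 ± 0.06 (SE, adjusted p = 7.3e-21). DM09363 fell by 0.71 on the log2 scale (SE 0.05, adjusted p = 4.7e-28) and DM01958 by 0.57 (SE 0.04, adjusted p = 3.3e-26), each below 0 in 3 of 3 chemicals.

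Against the DMSO control, 70 members were called, or 57.9%, against 67.3% of all probes. They were 37 higher (32.3% of all probes) and 33 lower (35%). On chemical means, 7 members were called, a slightly smaller share than the 6.31% of all probes. DM03824 rose by 0.62 ± 0.04 (SE, adjusted p = 6.4e-26), at 0.71 in Permethrin and 0.53 in Phenanthrene. DM02128 rose by 0.62 ± 0.04 (SE, adjusted p = 1.7e-27), at 0.77 in Permethrin and 0.47 in Phenanthrene. DM10468 fell by 0.60 on the log2 scale (SE 0.04, adjusted p = 7.6e-25) and DM03995 by 0.54 (SE 0.04, adjusted p = 1.5e-26), lower in both chemicals. In the Ethanol, Methanol, Acetone and DMSO means, limma gave 0 members past 1 log2 unit, where 5.63%, 5.85%, 13% and 12.8% of all probes passed it. The limit on the span, which all probes did not have, favours this.

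An F-test of the 5 vehicle means in the same limma model called 120 of 121 members, a share near the 98.7% of all probes. DM08143, saturated on 141 arrays, was the member not called (adjusted p = 0.074). DM07443 had the widest range of vehicle ratios, 1.43 log2 units. Among the 97 members saturated on no array, a split made after seeing the data, 94 were called in Media (91.2% of all probes), 73 in Ethanol (84.2%), 58 in Methanol (53.8%), 75 in Acetone (73.2%) and 66 in DMSO (67.3%). The F-test called 97 of them (98.7%). The test compares vehicles together with their spike-in handling and their control arrays, which cannot be told apart.

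The least variable unsaturated members also differed from some controls. DM03927 was called lower against Media (by 0.07, SE 0.02, adjusted p = 5.5e-06), Ethanol (by 0.08, SE 0.01, adjusted p = 3.2e-07) and Acetone (by 0.13, SE 0.03, adjusted p = 2.1e-04), all on the log2 scale. Against Methanol its ratio was 0.07 ± 0.03 (SE, adjusted p = 0.068) and against DMSO 0.02 ± 0.04 (SE, adjusted p = 0.64). DM06558 rose by 0.33 ± 0.01 (SE, adjusted p = 2.6e-52) against Ethanol, above 0 in 15 of 15 chemicals, and by 0.21 ± 0.01 (SE, adjusted p = 3e-33) against Media. DM07106 rose by 0.17 ± 0.01 (SE, adjusted p = 8.8e-24) against Ethanol and fell by 0.11 on the log2 scale (SE 0.01, adjusted p = 7e-13) against Media.

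Chemical by chemical, members were called about as often as all probes but by smaller amounts. The limit on the span, which all probes did not have, favours smaller amounts, so the sizes are a description. Over the 36 chemicals, 2712 of 4356 tests of members were called, or 62.3%, against 60.4% of all probes. The share of members called was above that of all probes in 23 chemicals, below it in 11 and equal in 2. The median size of the members' ratios was smaller than that of all probes in 36 of 36 chemicals, at 0.082 to 0.37 against 0.16 to 0.82. A member was called in 9 to 32 chemicals, with a median of 23, and the median over all probes was 23 as well. Of the members, 116 were called higher in some chemicals and lower in others, or 95.9%, against 93.6% of all probes.

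Within a vehicle, the number of members called varied by chemical. Among Media chemicals, Copper had the most, with 105 members against 73.7% of all probes, and Arsenic the fewest, with 66 against 58.8%. In Ethanol, the vertebrate hormone Beta-estradiol had 88 (56.1% of all probes) and Toluene 33 (27%). In Methanol, Methylfarnesoate, a juvenile hormone of crustaceans, had 71 (52.9%), and Aroclor, a mixture of chlorinated biphenyls, had 35 (42.2%). In Acetone, the herbicide Atrazine had 89 (63.4%) and Parathion 76 (59.7%). In DMSO, Permethrin had 82 (70.3%) and Phenanthrene 57 (44.9%). The differences between these counts were not tested.

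Changes of at least 1 log2 unit against the control were rare, which the limit on the span favours. A change of 1 needs a control near or beyond the edge of a member's narrow range, and all probes had no such limit. There were 23 in the 4356 tests, or 0.528%, against 17.6% of all probes. All 23 lay in Media chemicals, where the background was 25.8%, and they belonged to 8 members in 11 chemicals. In the 23 solvent chemicals limma gave 0, against 13% of all probes, while 1569 member tests were called there without the limit on size (54.6% of all probes). DM07443 held 8 of the 23, from 1.01 to 1.40, and DM07689 held 6, from 1.02 to 1.42, with 2 to 4 saturated arrays in each. Of the 3 falls, 2 were in 20 hydroxyecdysone, with DM06731 at -1.07, and 1 was in Phenol, with DM12446 at -1.07. The other 113 members changed by 1 or more in no chemical.

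The level of each control on the scanner scale is implied by subtracting the ratio from the chemical signal. For most members the 5 implied controls fell inside the range of the 36 chemicals, with 117 members inside for Ethanol, 116 for Methanol, 116 for Acetone and 120 for DMSO. For Media, 92 were inside, 20 below and 9 above. The other bright probes had 76.0% inside for Media and between 98.6% and 99.4% for the solvents, against their own wider ranges. The implied Media control was the lowest of the 5 for 48 members and the highest for 38.

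The range over the 5 implied controls had a median of 0.43 log2 units in the members, 0.98 in the other bright probes and 1.08 over all probes. It reached 1 or more in 6 members. DM07443 had the widest, 1.56, with an implied level of 12.76 in the Media control. DM07689 followed at 1.16, with 14.82 in the Media control, from chemical signals that were saturated in part. DM03927 had the narrowest of the 121, 0.13, with implied levels of 11.97 in Media, 11.98 in Ethanol, 11.85 in Methanol, 11.97 in Acetone and 11.88 in DMSO. These levels are means over the chemicals of a vehicle and share one set of control arrays each, so no error of the control is given.

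Features of the array that the rule did not name were unevenly shared too, though some are tied to the values it used. Of the members, 21 were spotted 2 times, or 17.4%, against 9.05% of the other bright probes and 6.07% of all probes. Averaging 2 spots lowers spot noise, and its part in the selection was not tested. The median gap between the 2 spots of a member was 0.12 log2 units, against 0.16 in the other bright probes. Probe IDs ending in P1 made up 47.1% of the members and 38.5% of all probes, and those ending in P3 made up 16.5% and 26.8%. The files do not say what these endings stand for. A bad-spot flag occurred on at least 1 array in 24 members, or 19.8%, against 2.38% of the other bright probes and 0.81% of all probes. The 24 flagged members were the 24 saturated ones. Saturated spots are bright and flat, so the rule favours them and the flags are not independent of it.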

How the data were processed

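The authors deposited 2 forms of the data for 36 chemicals with 4 Cy3-labelled Agilent arrays each, from *Daphnia magna*. Scanner tables hold median foreground and background intensity per spot, not normalised, per the file headers. The deposited value table holds log2 values for 13481 probes, with scale and direction unstated. The submitters' processing notes name limma without settings. Each value column was matched best by its own array's scanner column among the 4 of its chemical, with r of 0.596 or more. Over 190 pairs of chemicals with the same vehicle, the members' value differences had a median slope of 0.973 on scanner differences (range 0.751 to 1.12), so values were read as log2 ratios to a vehicle reference. Column medians lay between -0.032 and 0.038, and whether the authors centred them stays unknown.

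Each array has 15744 spots and 14338 probe names, 870 of them spotted 2 times. Signals were log2 of background-subtracted intensity, at least 0, plus 50, averaged over spots and quantile normalised over all arrays (Python 3.11.15). The ratios were fitted with limma 3.58.1 in R 4.3.3 with 36 group means, 108 residual degrees of freedom and eBayes, tested on simulated data first. The spread is pooled over arrays, whose separate origin is given only as replicates. Arrays of different chemicals share only a replicate number.

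The members, the tests and the naming rule were chosen with earlier results of these data known. Named were the members of smallest span, highest mean, largest and smallest replicate SD and widest control range, those at the limits, and the 2 highest and 2 lowest ratios per vehicle. Chemicals with the most and fewest calls per vehicle were named too. DM03927, DM07106, DM06558 and DM01772 were added after their values were seen. The number of arrays limits the precision. In 5 control tables, 60 columns of 20 arrays match no sample and were not used here. Alternatives covered background, offset, scaling, saturated and flagged probes, replicates left out, a replicate block, a size limit and a fit on chemical means. Gene names and sequences of the probes were not used here.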

Additional observations from a re-analysis of the deposited data

Results flagged for a closer look

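Among the named members, 60 groups of 4 arrays were examined for a lone array, which chance gives in about 1 of 20 groups, and 5 were found. DM04406 in Nickel had 1 array at 11.29 against 11.88 to 11.98 on the other arrays. DM07443 in Phenanthrene had 1 array at 14.55 against 14.35 to 14.37. The gaps were within the top of the scale for DM01597 in Atrazine (15.999), DM07689 in Beta-estradiol (15.999) and DM14576 in Lamda Cyhalothrin (15.94), whose 4 arrays were all saturated.

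The log2 ratio to the control differed among the 5 vehicles in 120 of 121 members by limma's F-test, a share near the 98.7% of all probes. The range of the 5 vehicle ratios was 1.43 for DM07443, 1.29 for DM01958, 1.25 for DM09363, 1.23 for DM06740 and 1.06 for DM02472. It was 0.996 for DM06731, 0.976 for DM09353, 0.957 for DM02128, 0.948 for DM07689 and 0.945 for DM10468. It was 0.869 for DM03824, 0.853 for DM05374, 0.806 for DM04406, 0.786 for DM03995 and 0.646 for DM12446. The narrowest of the named were 0.441 for DM01587, 0.406 for DM01800 and 0.357 for DM10731. Vehicle, control arrays and spike-in handling cannot be told apart in these ranges, and DM07689 was saturated on many arrays.

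The spike-in spots E1A_r60_1, control features outside the comparisons, had a median signal of 64201.4 intensity units on the 92 arrays of solvent chemicals and 6.20 on the 52 arrays of Media chemicals.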

How the results depend on the processing

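The number of probes that met the rule was 121, and it was 42 with median centring and 236 without the 52 Media arrays, an alternative chosen after seeing the data. With no background subtraction it was 125, with an offset of 100 it was 126, with normexp 122, and with saturated probes left out 97. Without 1 replicate of each chemical it was 111 to 116. With a change of at least 1 required, the calls were 1 in Media, 0 in Ethanol, 0 in Methanol, 0 in Acetone and 0 in DMSO, and 23 over the 36 chemicals. For the 42 probes chosen after median centring, 41 were called in Media, 39 in Ethanol, 22 in Methanol, 31 in Acetone and 16 in DMSO, 907 over the 36 chemicals and 41 among vehicles; fewer probes were tested. With limma on 36 chemical means, calls were 83 in Media (73.3% of all probes), 46 in Ethanol (47.9%) and 0 in Methanol (1.62%). They were 26 in Acetone (23%) and 7 in DMSO (6.31%), and in Methanol 5 members had an unadjusted p under 0.05. In every vehicle the members' share was then below that of all probes. In the main fit it was above in Media, Methanol and Acetone. The cause of the change was not tested. Without 1 replicate of each chemical, calls were 116 in Media, 87 to 91 in Ethanol, 57 to 65 in Methanol, 90 to 92 in Acetone, 64 to 72 in DMSO and 2445 to 2555 over the 36 chemicals. With the replicate number as a block, calls were 117, 93, 69, 92 and 70 for Media, Ethanol, Methanol, Acetone and DMSO, 2713 over the chemicals and 120 among vehicles. Deviations of arrays with the same number had a median correlation of -0.0024 and those with different numbers 0.00095. These medians pool chemicals of all vehicles and show no pairing by number over the series as a whole. Pairs within a vehicle were not examined apart. With the ratios centred on the median, calls were 117, 92, 66, 95 and 70 for Media, Ethanol, Methanol, Acetone and DMSO. With the ratios quantile normalised they were 113, 102, 79, 94 and 71. Ratios of single members under these scalings are not given here. The scanner limit bounds 24 members, and the control arrays' spread is missing from every p-value.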
